A study of Mus musculus with 8 samples.

Results

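The ligands of the tumour necrosis factor (TNF) family described here are lymphotoxin beta (Ltb), lymphotoxin alpha (Lta), TNF itself (Tnf), RANKL (Tnfsf11), CD40 ligand (Cd40lg), CD30 ligand (Tnfsf8), TRAIL (Tnfsf10) and LIGHT (Tnfsf14). They were found by gene symbol, and all 8 were among the 24421 symbols of the deposited count table and passed the filter on low counts. The set was chosen by earlier results from these same libraries, in which Ltb was among the genes with the smallest p between genotypes, so the differences of the 8 transcripts between genotypes are given as a description and support nothing. RNA came from CD4+ T cells sorted out of enzyme-digested knees. All mice were males, 16 weeks old, with antigen induced arthritis, and gave 4 wild-type libraries and 4 libraries of the Slc7a5 knockout. The labels do not say which allele was used, whether other cells lost Slc7a5 too, or whether separate animals gave the libraries. The p-values therefore measure spread between libraries only, and this may be technical. The comparison asks which ligand transcripts differ in joint T cells without Slc7a5, the light chain of a transporter of large neutral amino acids.

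TNF-family ligands are made as membrane proteins that assemble into trimers and bind receptors of the matching family on neighbouring cells. Lta forms a secreted trimer of its own that binds the TNF receptors, and joins Ltb on the membrane of lymphocytes in mixed trimers that bind the lymphotoxin beta receptor of stromal and myeloid cells. In arthritic joints TNF drives inflammation of the synovium, and RANKL, which T cells and stromal cells make, drives the formation of osteoclasts that resorb bone. CD40 ligand gives T cell help to B cells, dendritic cells and macrophages.

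Ltb, Tnf and Lta lie next to each other in the major histocompatibility complex on chromosome 17 (GRCm38, GENCODE M21). Ltb spans 35194439 to 35196320 on the plus strand, Tnf spans 35199381 to 35202007 and Lta spans 35203165 to 35205351, both on the minus strand. The gap between Ltb and Tnf is 3060 bases and that between Tnf and Lta 1157 bases. Ltb holds the microRNA gene Mir6973a and Lta holds Mir6974 within their bounds, and without a stated strand setting reads of such overlapping genes cannot be told apart. Tnfsf14 lies further along chromosome 17 (57189492 to 57194177), Tnfsf8 on chromosome 4 (63831308 to 63861347), Tnfsf10 on chromosome 3 (27317028 to 27342427), Tnfsf11 on chromosome 14 (78277445 to 78308043) and Cd40lg on chromosome X (57212143 to 57224042). None of these 5 overlaps another annotated gene.

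The stretches upstream of Ltb and Tnf are shown because these neighbours of the locus are members whose wild-type and knockout libraries did not overlap. They are RefSeq promoter sequences of GRCm38.p6, read 5′ to 3′ on the gene's strand, and end before the most upstream annotated start of the gene. That of Ltb is chr17:35194257-35194438 on the plus strand and that of Tnf is chr17:35202008-35202257 on the minus strand. Capitals mark matches, on either strand, to a kappaB motif (GGNNTTTCC), bound by NF-kappaB, or to an NFAT core (GGAAAA), bound by NFAT factors of activated T cells.
Ltb: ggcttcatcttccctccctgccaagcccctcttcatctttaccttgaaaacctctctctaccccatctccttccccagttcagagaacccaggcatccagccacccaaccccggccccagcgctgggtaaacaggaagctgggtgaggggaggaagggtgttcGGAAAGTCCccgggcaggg
Tnf: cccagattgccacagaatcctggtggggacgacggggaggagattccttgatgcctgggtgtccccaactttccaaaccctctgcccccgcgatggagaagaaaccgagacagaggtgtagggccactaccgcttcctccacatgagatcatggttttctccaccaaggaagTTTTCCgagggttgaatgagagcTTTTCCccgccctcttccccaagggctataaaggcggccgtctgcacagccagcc
The Ltb stretch holds a single kappaB match, from base 87 to base 79 before the RefSeq start on the minus strand, while the Tnf stretch holds 2 NFAT cores on the minus strand. Neither holds the AP-1 motif TGANTCA, which marks binding of Fos and Jun dimers, and the matches shown do not overlap, although a kappaB match on the minus strand can also hold an NFAT core. Of 32536 RefSeq promoter windows of 250 bases, identical ones counted once, 4.93% hold the kappaB motif, 20.4% the NFAT core and 6.73% the AP-1 motif. Promoter sequences were at hand for 7 of the 8 ligands, Cd40lg being without an entry. Among the others, a match was found in the window of Tnfsf14 alone, which holds an AP-1 motif.

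The libraries held 18837650 to 36436923 counts, and genes with a count numbered 7957 to 10139 in wild type and 5221 to 9358 in knockout. Counts of Slc7a5 were 385, 194, 410 and 0 in the wild-type libraries, by replicate number, and 0 in each knockout library, so wild-type replicate 4 is not told apart from knockout by this gene. T cell markers (8 of 9 listed were in the table, all with counts) summed to 6812 to 9559 CPM (counts scaled to a common library size) in wild type and to 5223 to 7487 CPM in knockout. Knockout replicate 4 stood apart. It had the fewest genes and Spearman correlations of 0.489 to 0.544 with the other libraries. Against its label it held 34 Cd4 counts (1.78 CPM, against 344 to 570 CPM in the other 7 libraries) and 2355 counts of Cd8b1, a CD8 chain (123 CPM, against 0 to 20.3 CPM). Cd8a, the other CD8 chain, was at 0 CPM in it. The ligands' fold changes, the list medians shown and the fold changes of some list genes are therefore also given without it.

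Across all 8489 tested genes, the quasi-likelihood test of edgeR, adjusted after Benjamini and Hochberg, called 0 genes (0%) and 326 lay at an unadjusted p under 0.05. DESeq2 called 387 of 10659 genes (3.63%), limma voom 9 of the 8489 (0.106%) and limma voom with library quality weights 4 (0.0471%). Of the 8 ligands, edgeR and DESeq2 called 0, although DESeq2 gave no p for Tnfsf10, and both limma fits called Ltb. At an unadjusted p under 0.05 in edgeR there were Ltb and Tnfsf8. Wild-type and knockout libraries did not overlap for 3 ligands: Ltb and Tnf were lower in every knockout library, and Tnfsf8 was higher in every knockout library. Over all tested genes 4.62% lay below in this way and 1.52% above. Since the ligands were picked with this contrast known, nothing is read from their share. In RNA from sorted pools, fewer cells with a transcript and less transcript per cell cannot be told apart.

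Ltb, the membrane lymphotoxin, was by far the most abundant of the ligands and was lower in knockout. It stood at 2277, 2289, 1962 and 2051 CPM in wild-type replicates 1 to 4 and at 1123, 1154, 1127 and 1197 CPM in those of the knockout. The lowest wild-type library was well above the highest knockout library, and the spread within a genotype was small, with a coefficient of variation of 7.64% in wild type and 2.93% in knockout. The mean was 2145 ± 164 CPM in wild type against 1150 ± 33.8 CPM in knockout (SD, n = 4 each), a log2 fold change of −0.90 (SE 0.16, edgeR adjusted p = 0.437). The adjusted p was 0.113 in DESeq2, 0.00546 in limma voom and 0.0177 in limma voom with quality weights, the full range over 21 alternatives being 0.00546 to 1. Without knockout replicate 4 the log2 fold change was −0.93, without wild-type replicate 4, which had no Slc7a5 count, it was −0.92, and leaving out each library in turn gave −0.94 to −0.87.

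The Ltb transcript is rich in G and C, and GC content moved with genotype across the transcriptome. Its longest transcript has 61.0% GC, above 99.3% of 2951 abundant genes. Among those abundant genes, the median log2 fold change went from 0.39 in the quintile with the lowest GC content to −0.25 in the quintile with the highest. For each library, the log2 CPM of each gene was set against the gene's own mean over all libraries. On this relative scale the median of the GC-rich quintile lay above that of the GC-poor quintile in all 4 wild-type libraries (by 0.13 to 0.68). In all 4 knockout libraries it lay below (−0.55 to −0.18). Once each library was given an offset for GC content, Ltb had a log2 fold change of −0.44 (SE 0.20, edgeR adjusted p = 0.99998) in place of −0.90. Its adjusted level was 1854 ± 360 CPM in wild type against 1365 ± 282 CPM in knockout, with overlapping groups. With a robust curve the values were −0.42, 1840 ± 313 CPM and 1378 ± 70.4 CPM, and the groups did not overlap. The limma fits, which called Ltb, were not run with a GC offset.

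**Figure D1:**
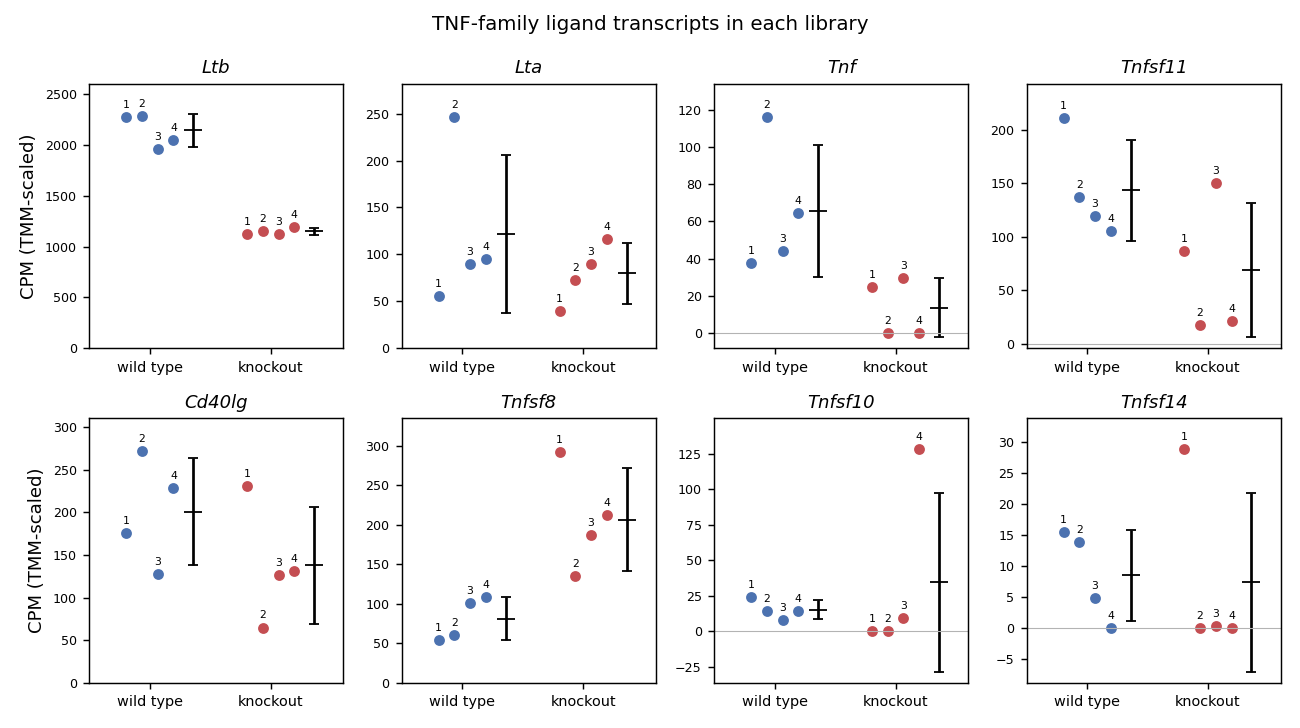
TMM-scaled CPM (vertical axes, each with its own scale) of the 8 ligand transcripts in each library of wild type (blue) and Slc7a5 knockout (red); numbers beside points are replicate numbers, and black marks give the mean ± SD of 4 libraries. Ltb separates tightly, at 1962 to 2289 against 1123 to 1197 CPM, while Tnfsf10 and Tnfsf14 in knockout rest on a single library each.

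Lta, the partner of Ltb and a soluble ligand of TNF receptors, varied more between libraries than between genotypes. It was at 55.4, 246, 90.1 and 95.5 CPM in wild-type replicates 1 to 4 and at 39.6, 73.0, 89.3 and 117 CPM in knockout. The groups overlapped, and wild-type replicate 2 lay far above the other wild-type libraries. The log2 fold change was −0.61 (SE 0.65), and −0.04 without wild-type replicate 2. Without knockout replicate 4 it was −0.87, without wild-type and knockout replicates 4 −0.97, without knockout replicate 1 −0.39, and with the GC offset −0.32, the Lta transcript having 55.7% GC. Per kilobase of exon, Ltb exceeded Lta in every library, by 8.49 to 37.5 times in wild type and by 9.36 to 25.9 times in knockout.

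Tnf, the founding member of the family, was lower in every knockout library than in any wild-type library. It was at 37.4, 116, 43.9 and 64.4 CPM in wild-type replicates 1 to 4 and at 24.9, 0.0556, 29.7 and 0 CPM in knockout. The knockout libraries split into a pair with 591 and 746 counts and a pair with 1 and 0 counts. The gap between the highest knockout and the lowest wild-type library was small, 29.7 against 37.4 CPM. The log2 fold change was −2.26 (SE 1.91, edgeR adjusted p = 0.9999), and it was −1.85 without knockout replicate 4, −1.87 without knockout replicate 2 and −2.13 with the GC offset. In limma voom it was −5.57. Both low libraries, knockout replicates 2 and 4, were also the pair with the fewest genes in knockout, and the part of that in the level of Tnf was not tested.

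Tnfsf11, which encodes RANKL, was at 211, 137, 119 and 105 CPM in wild-type replicates 1 to 4 and at 86.4, 17.1, 150 and 21.4 CPM in knockout. Knockout replicates 1, 2 and 4 lay below every wild-type library and replicate 3 lay within their range. As for Tnf, replicates 2 and 4 were the lowest. The mean was 143 ± 46.9 CPM in wild type against 68.7 ± 62.8 CPM in knockout, with a log2 fold change of −1.06 (SE 0.74). The log2 fold change was −0.78 without knockout replicate 4 and −1.78 without knockout replicate 3. With the GC offset it was −1.23, the Tnfsf11 transcript having 44.9% GC.

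Cd40lg, the ligand of CD40 that activated helper T cells display, ranked next after Ltb in level per kilobase of exon in each genotype. It was at 176, 272, 127 and 229 CPM in wild-type replicates 1 to 4 and at 231, 65.0, 126 and 131 CPM in knockout. The groups overlapped, with knockout replicate 2 the lowest of all libraries. The log2 fold change was −0.54 (SE 0.45), −0.53 without knockout replicate 4, −0.90 without knockout replicate 1 and −0.33 without knockout replicate 2. With the GC offset it was −0.69.

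Tnfsf8, the ligand of CD30 on activated lymphocytes, went the other way and was higher in every knockout library. It was at 54.8, 60.8, 101 and 109 CPM in wild-type replicates 1 to 4 and at 292, 135, 188 and 212 CPM in knockout. Knockout replicate 2, the lowest, was still above the highest wild-type library, wild-type replicate 4. The mean was 81.5 ± 27.6 CPM in wild type against 207 ± 65.6 CPM in knockout, a log2 fold change of 1.34 (SE 0.45, edgeR adjusted p = 0.655). The adjusted p was 0.177 in DESeq2 and ran from 0.177 to 1 over 21 alternatives. The log2 fold change was 1.32 without knockout replicate 4, 1.52 without wild-type replicate 4 and 1.13 to 1.52 when each library was left out. The Tnfsf8 transcript has 42.6% GC, which places it at the percentile 18.8 of abundant genes. With the GC offset the log2 fold change was 1.09, and the adjusted levels then overlapped in a single pair of libraries, 111 CPM in knockout replicate 2 against 118 CPM in wild-type replicate 4. With the robust curve they did not overlap.

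Tnfsf10 and Tnfsf14 were scarce. Tnfsf10, whose product TRAIL can trigger cell death, was at 24.2, 14.3, 8.34 and 14.6 CPM in wild-type replicates 1 to 4 and at 0, 0, 9.36 and 128 CPM in knockout. Its higher knockout mean rests on replicate 4, the library apart: the log2 fold change was 1.17 (SE 2.26) with it and −2.31 without it. Tnfsf14, which encodes LIGHT, a ligand of the lymphotoxin beta receptor and of HVEM, was at 15.4, 13.8, 4.71 and 0 CPM in wild-type replicates 1 to 4 and at 28.9, 0, 0.279 and 0 CPM in knockout. Its log2 fold change was −0.22 (SE 2.68), 0.18 without knockout replicate 4 and −6.42 without knockout replicate 1, which held 686 counts where the other knockout libraries held 0, 7 and 0. A count of 0 allows up to 0.0834 to 0.167 CPM in these libraries (3 counts, counting error only).

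**Figure D2:**
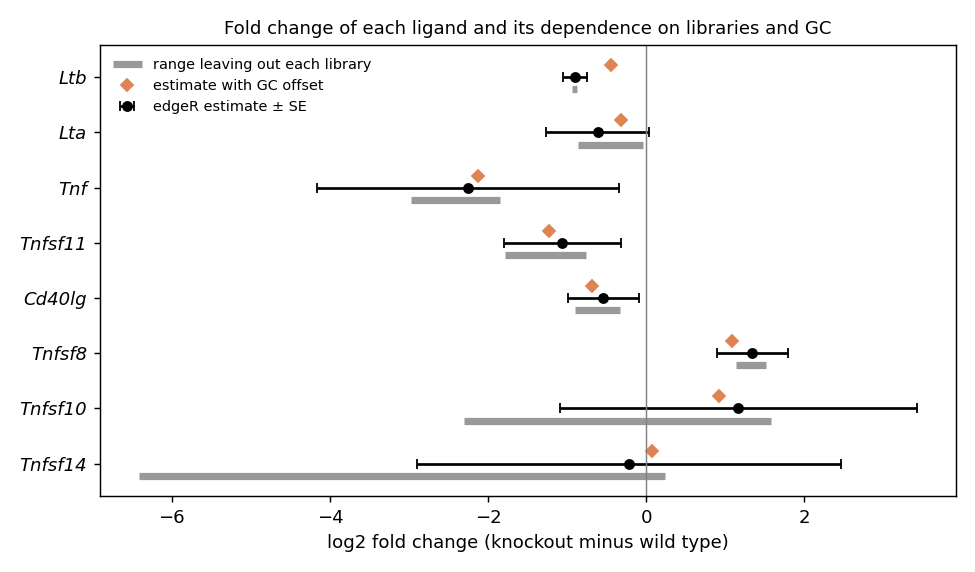
Log2 fold change of each ligand, knockout minus wild type (horizontal axis), as the edgeR estimate ± SE from 4 libraries a genotype (black), with the GC offset (orange), and as the range over 8 fits that each leave out a library (grey). Ltb had the smallest SE (0.16) and moved to −0.44 with the GC offset, whereas Tnfsf10 and Tnfsf14 changed sign when a single library was left out.

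**Figure D3:**
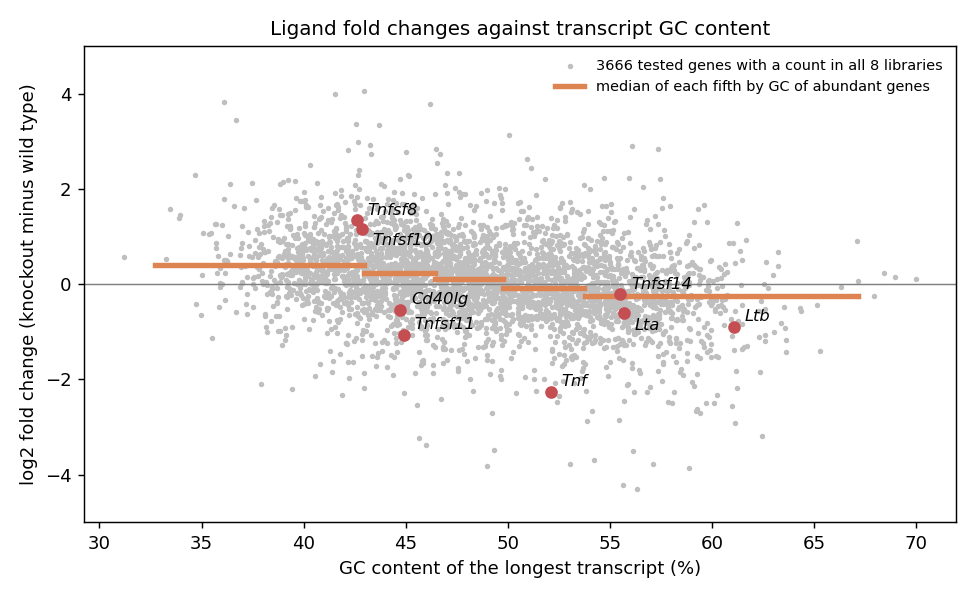
Log2 fold change, knockout minus wild type (vertical axis), against GC content of the longest transcript (horizontal axis) for 3666 tested genes with a count in all 8 libraries (grey, of which 4 lie outside the axis) and the 8 ligands (red); orange lines are medians over quintiles of abundant genes by GC content. The medians descend from 0.39 to −0.25, Ltb lies at the GC-rich end and Tnfsf8 and Tnfsf10 at the GC-poor side.

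Levels of different ligands were set side by side as CPM per kilobase of annotated exon. In wild type the mean level, with the range over 4 libraries, was 1415 (1294 to 1510) for Ltb, 161 (102 to 217) for Cd40lg, 88.0 (40.1 to 178) for Lta and 64.0 (47.1 to 94.2) for Tnfsf11. It was 39.9 (22.8 to 70.7) for Tnf, 21.4 (14.4 to 28.7) for Tnfsf8, 4.59 (0 to 8.32) for Tnfsf14 and 2.92 (1.58 to 4.59) for Tnfsf10. Only Ltb and Cd40lg, and Tnfsf8 and Tnfsf14, were neighbours in this order whose libraries did not overlap. In knockout Ltb at 759 (741 to 789) again led Cd40lg at 111 (52.0 to 185) and Lta at 57.6 (28.6 to 84.3). Tnfsf8 at 54.3 (35.4 to 76.8) stood ahead of Tnfsf11 at 30.7 (7.63 to 67.0), Tnf at 8.34 (0 to 18.1), Tnfsf10 at 6.54 (0 to 24.4) and Tnfsf14 at 3.95 (0 to 15.6). Below Ltb all neighbours in the knockout order overlapped. Tnf thus stood above Tnfsf8 by mean level in wild type and below it in knockout. Ltb made up 73.2% to 82.3% of the summed per-kilobase level of the 8 ligands in wild-type libraries and 67.3% to 83.7% in knockout libraries.

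**Figure D4:**
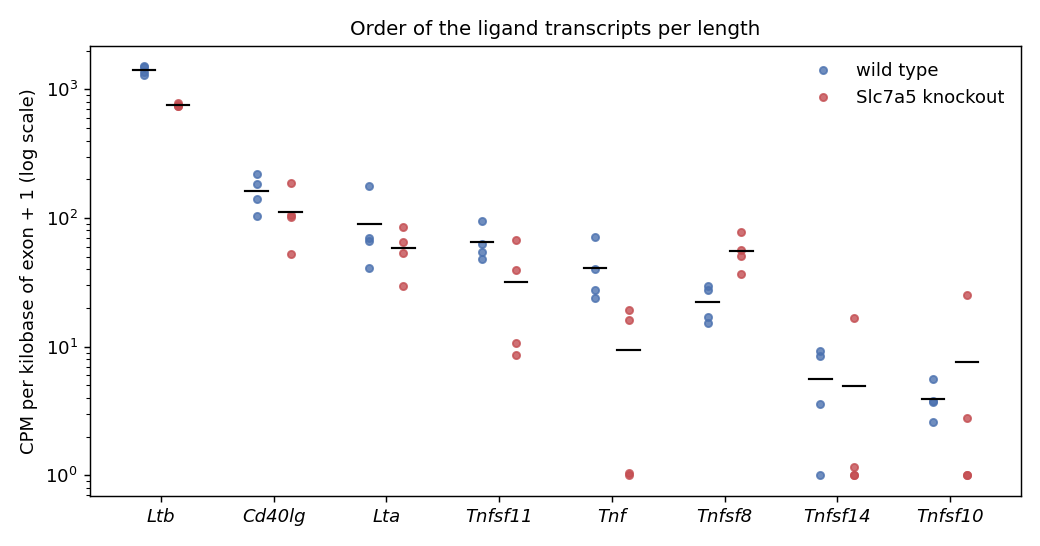
CPM per kilobase of exon plus 1 (vertical axis, log scale) of the 8 ligands, ordered by their wild-type mean, with points for the 4 libraries of wild type (blue) and of Slc7a5 knockout (red) and black lines at the means. Ltb lies above all other ligands in each genotype, at 1415 and 759 CPM per kilobase.

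Several libraries stood high or low for more than 1 ligand. Wild-type replicate 2 had the highest wild-type level of Lta, Tnf, Cd40lg and, narrowly, Ltb. Knockout replicate 2 had the lowest knockout level of Tnfsf11, Cd40lg and Tnfsf8. Profiles over the 8 libraries were compared as the root mean square difference of centred log2 CPM among 3781 other genes with a count in every library. Closest to Ltb were Tnfaip3, the NF-kappaB inhibitor A20 (0.15), Atp5o, a subunit of ATP synthase (0.18), and Laptm5, a lysosomal protein of lymphocytes (0.19), where the median gene differed by 1.02. These profiles hold no GC offset. The Tnfaip3 transcript has 47.1% GC, and with the offset its log2 fold change was −0.94 where that of Ltb was −0.44. Among the closest to Cd40lg were Msn (0.29) and Phb2 (0.30), the median gene differing by 1.11. Closest to Tnfsf8 were Rsf1 (0.25), Stk38l (0.29) and Arf4 (0.35), the median gene differing by 1.17.

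Among other ligands of the family, 5 of 10 listed genes had a count and 2 were tested, both with lower estimates in knockout and 0 called. Fasl, the death ligand of Fas, was at 297 ± 92.4 CPM in wild type against 153 ± 69.0 CPM in knockout, with a log2 fold change of −0.96 (SE 0.41, edgeR adjusted p = 0.9999), and its genotypes did not overlap. Without knockout replicate 4 it was −1.17. Tnfsf9, which encodes the ligand of 4-1BB, averaged 183 ± 71.9 CPM in wild type and 109 ± 31.9 in knockout (log2 fold change −0.75, SE 0.45). Tnfsf4, the OX40 ligand, and Cd70, the ligand of CD27, were at 0 in all knockout libraries, but also in 1 and 2 of the 4 wild-type libraries.

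The receptors that the 8 ligands bind were mostly scarce in these cells. Ltbr, the receptor of the mixed lymphotoxin trimer, had counts in 3 of 8 libraries and reached 12.1 CPM at most. Cd40 had counts in a single library, a knockout one, and Tnfrsf11a, the RANK receptor, likewise in a single knockout library, at up to 33.1 and 8.05 CPM. Tnfrsf1b, the TNF receptor of lymphocytes, was the most abundant, at 162 ± 101 CPM in wild type against 134 ± 78.5 CPM in knockout, with a log2 fold change of −0.28 (SE 0.58). Tnfrsf10b, the TRAIL receptor, averaged 12.1 ± 8.91 CPM in wild type and 40.3 ± 22.6 in knockout (log2 fold change 1.74, SE 1.49), and Tnfrsf1a, the other TNF receptor, 24.3 ± 18.2 CPM and 7.36 ± 14.7 CPM (log2 fold change −1.72, SE 2.49). Of 4 tested receptors 0 were called, and their median log2 fold change was −1.0 where that of all tested genes was −0.12. It was 0.73 over the 8 receptors with a count when no filter was used, and 0.81 over the same number in DESeq2. Over the 4 tested receptors it was −2.60 in limma voom, where that of all tested genes was −1.28. Over the same receptors it was −0.75 with the GC offset and −1.04 without knockout replicate 4. That library held the highest knockout level of Tnfrsf1b, and without it the log2 fold change of Tnfrsf1b was −0.77. Those of Tnfrsf10b and Tnfrsf1a were then 1.43 and −1.32.

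Receptors of other family ligands held more abundant transcripts. Tnfrsf4 (OX40), a costimulatory receptor, averaged 3755 ± 654 CPM in wild type and 3872 ± 670 in knockout (log2 fold change 0.04, SE 0.18). Tnfrsf18 (GITR) averaged 1032 ± 131 CPM in wild type and 884 ± 148 in knockout (log2 fold change −0.22, SE 0.20) and Tnfrsf9 (4-1BB) 589 ± 164 and 491 ± 154 CPM (log2 fold change −0.26, SE 0.29). Of 10 tested genes in this list 0 were called, and the median log2 fold change was 0.05, which turned to −0.04 under upper quartile scaling and to −0.07 on library totals, and was also below 0 in both limma fits, with the replicate block, and without some single libraries. It was −0.11 without knockout replicate 4, which also turned the log2 fold change of Tnfrsf4 to −0.06 and moved that of Tnfrsf9 to −0.44, and that of Tnfrsf18 was 0.15 with the GC offset.

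In the lists that follow, the first mean of each gene is wild type and the other knockout. The list medians are to be read beside the median of all tested genes in the same fit. That was −0.12 in the main fit, −1.28 in limma voom and −0.36 with quality weights. Likewise, list counts at an unadjusted p under 0.05 are to be read beside the 326 of all 8489 tested genes. The lists were chosen with earlier results known, so nothing is read from these counts. Downstream of the receptors, 22 adaptors and ubiquitin enzymes were tested and edgeR called 0, with 0 at an unadjusted p under 0.05 and a median log2 fold change of −0.31. The median was −2.10 in limma voom, −0.60 with quality weights and −0.48 without knockout replicate 4. Casp8, the caspase of death receptors, was at 229 ± 111 and 186 ± 20.8 CPM, Birc3, a ubiquitin ligase of TNF receptor complexes, at 187 ± 95.1 and 98.0 ± 84.7 CPM, and Tab2, an adaptor of the TAK1 kinase, at 98.1 ± 35.2 and 173 ± 101 CPM. Without knockout replicate 4 the log2 fold change of Birc3 was −0.53 in place of −0.93 and that of Tab2 0.35 in place of 0.82. Among 15 NF-kappaB subunits and inhibitors edgeR called 0, with 3 at an unadjusted p under 0.05 (Tnfaip3, Nfkb1 and Rel) and a median of −0.43. The median was −1.33 in limma voom, −0.88 with quality weights, −0.15 with the GC offset and −0.48 without knockout replicate 4. Tnfaip3, which removes ubiquitin from these complexes, was at 1004 ± 138 and 538 ± 49.8 CPM, with a log2 fold change of −0.90 (SE 0.19, edgeR adjusted p = 0.460). Nfkb1, the subunit p105 and p50, ranged from 123 to 273 CPM in wild type and from 0.366 to 83.0 CPM in knockout (log2 fold change −2.28, SE 1.04), with no overlap, and Rel, the subunit c-Rel, was at 53.2 ± 54.3 CPM against 178 ± 100.4 CPM (log2 fold change 1.74, SE 0.73). The lowest Nfkb1 level was that of knockout replicate 4, without which its knockout libraries began at 18.5 CPM and the log2 fold change was −1.89. Without that library those of Tnfaip3 and Rel were −0.85 and 1.56. Nfkbia, the inhibitor IkappaB alpha, was at 1546 ± 272 and 1308 ± 313 CPM, and Nfkbiz, a nuclear IkappaB protein, at 302 ± 53.3 and 216 ± 183 CPM. The log2 fold change of Nfkbia was −0.24 and −0.41 without knockout replicate 4, and that of Nfkbiz −0.48 and −0.17.

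Of 6 genes listed for shedding, the release of TNF-family ligands from the membrane, 3 were tested. Rhbdf1, Rhbdf2 and Timp3 did not pass the filter on low counts. Adam10 was at 245 ± 65.3 and 345 ± 87.3 CPM, Adam17, the TNF convertase, at 60.1 ± 35.1 and 32.0 ± 17.2 CPM, and Frmd8, which stabilises the ADAM17 complex, at 73.1 ± 17.4 and 42.9 ± 53.1 CPM. Of these 3 tested genes edgeR called 0, with 0 at an unadjusted p under 0.05. Their median was −0.77, −0.47 with the GC offset and −0.42 without knockout replicate 4, where the log2 fold change of Frmd8 was −0.37 in place of −0.77. The list of mRNA decay and AU-rich element binding, which holds proteins that bind or destabilise cytokine transcripts, had 0 of 10 tested genes called, 5 higher and 5 lower estimates and a median of 0.06. That median ran to −0.50 in limma voom, −0.26 with quality weights and −0.28 without knockout replicate 1, was −0.02 under upper quartile scaling, and was 0.09 without knockout replicate 4. In it Zc3h12d was at 358 ± 106 and 562 ± 299 CPM, Zfp36l1 at 552 ± 358 and 332 ± 155 CPM, and Rc3h1 at 147 ± 108 and 497 ± 515 CPM. Knockout replicate 4 held 0 CPM of Rc3h1, where the other knockout libraries held 360 to 1219 CPM and wild type 12.2 to 277 CPM. The log2 fold change of Rc3h1 was 1.75 (SE 1.55), and 2.15 without knockout replicate 4. Of 14 transcription factors of T cell activation 0 were called, with 2 at an unadjusted p under 0.05. These were Junb, an AP-1 subunit, at 2162 ± 928 and 939 ± 536 CPM (log2 fold change −1.20, SE 0.44), and Ets1, at 3531 ± 753 and 5215 ± 1455 CPM (log2 fold change 0.56, SE 0.22). Fos was at 489 ± 171 and 320 ± 97.6 CPM. The median of that list was −0.24. It was 0.16 with the GC offset, −0.52 in limma voom, −0.43 with quality weights and −0.24 without knockout replicate 4. Without that library the log2 fold change of Junb was −1.33 and that of Ets1 0.70.

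**Figure D5:**
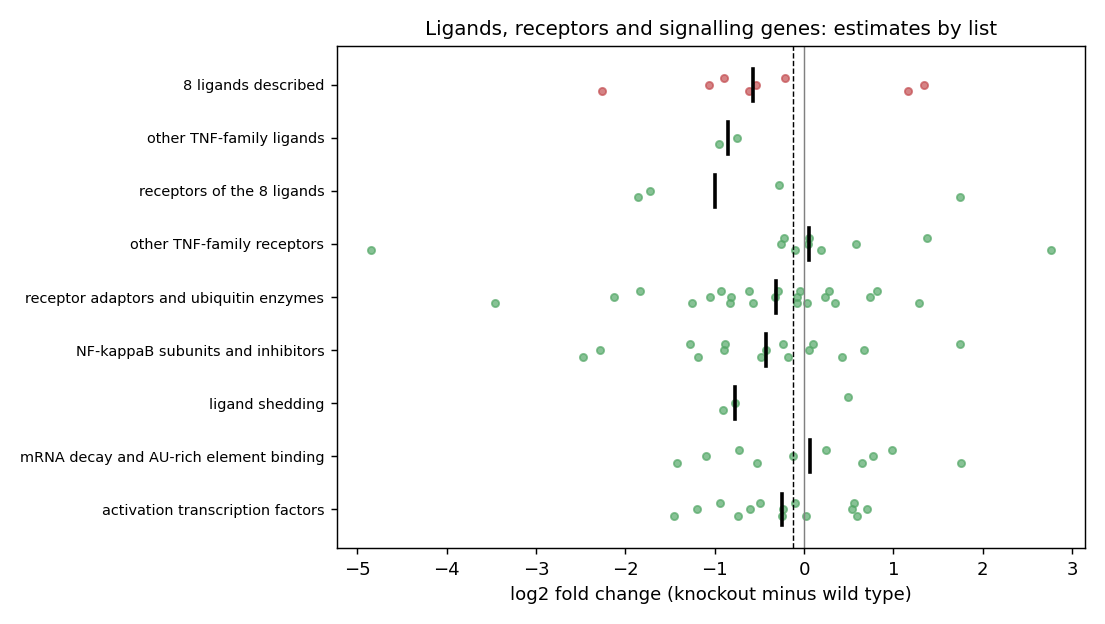
Log2 fold change, knockout minus wild type (horizontal axis), of the tested genes in each list (points, with small vertical offsets for legibility); black bars are list medians and the dashed line is the median of all tested genes (−0.12). The 8 ligands have a median of −0.58 and range from −2.26 for Tnf to 1.34 for Tnfsf8.

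Other cells of the joint also make these ligands, so their markers are given beside the results. B cell markers, from cells that express Ltb and Lta, were at 0 in every library for Ms4a1 and Pax5, and the list summed to at most 8.12 CPM in wild type against 39.6 CPM in knockout. Cd79b was at 35.2 and 30.6 CPM in knockout replicates 2 and 3 and at 0 to 8.12 CPM in the other libraries. Of the monocyte and macrophage markers, from cells that express Tnf, Adgre1 and Fcgr1 were at 0. The list summed to 47.6 to 90.5 CPM in wild type against 54.5 to 90.7 CPM in knockout. Single markers differed within these sums. Lyz2 ranged from 22.0 to 25.7 CPM in wild type, while knockout replicate 3 held 25.5 CPM and the other knockout libraries 0 to 0.366 CPM. Csf1r was absent from wild type, whereas knockout replicate 2 held 44.3 CPM, replicate 3 21.9 CPM and replicate 4 0.0522 CPM. Cd68 made up all of the sum in knockout replicate 1 and most of it in replicate 4. Of the fibroblast and osteoblast markers, from cells that express Tnfsf11, Col1a2 and Bglap were at 0 and Col1a1 reached 0.611 CPM. That list summed to 48.1 to 174 CPM in wild type against 22.5 to 86.5 CPM in knockout, and Runx2 made up most of it in every library but knockout replicate 1, where Prg4 did. The list of CD8 T and natural killer cells summed to 0 to 23.2 CPM in wild type and to 0 to 123 CPM in knockout, with Ncr1 and Eomes at 0. Cd8b1 made up all of the 123 CPM, in knockout replicate 4, where Cd8a and Klrb1c were at 0 too. Neutrophil markers reached 72.9 and 70.1 CPM, the osteoclast list 99.3 and 153 CPM, with Ctsk, Oscar and Dcstamp at 0, and endothelial markers 158 and 124 CPM. Pecam1 made up all of both endothelial values, with Cdh5 and Kdr at 0 in those libraries. In contrast, transcripts of MHC class II, the complex by which cells present antigen to CD4+ T cells, summed to 1152 to 2930 CPM in wild type and to 8632, 9885, 1840 and 10832 CPM in knockout replicates 1 to 4. Knockout replicate 3 lay within the wild-type range for them, while its Ltb level of 1127 CPM lay between those of the other knockout libraries. The part of these cells in the levels of the ligands was not tested.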

How the data were processed

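RNA-seq was done on 4 wild-type and 4 Slc7a5 knockout libraries of CD4+ T cells from arthritic knees, made with a low-input kit, per the labels' protocols. The authors deposited a table of raw counts by gene symbol, with no normalization. The submitters' processing notes name HISAT2 2.1.0, featureCounts, edgeR 3.28.1 and mm10; the annotation, strand setting and handling of duplicates are not given in the sources used here. Members and gene lists had been chosen with earlier results of these data known.

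From the counts, low genes were removed with filterByExpr (minimum count 10, minimum total 15) and libraries scaled by TMM in edgeR 4.0.16 under R 4.3.3. The genotypes were compared over all genes in a robust quasi-likelihood fit with no other term. Genes with a Benjamini-Hochberg adjusted p under 0.05 were called. Log2 fold changes are knockout minus wild type, and their SE is their size divided by the root of F. CPM values use the TMM-scaled library size. Exon length and GC content came from GENCODE M21 (GRCm38, the mm10 coordinates). Named genes were the 8 ligands, the 3 most abundant tested genes of each list, any gene called, and the 3 profiles nearest to Ltb and to the 2 next most abundant members seen in every library; Ltbr, Cd40, Tnfrsf11a, Tnfsf4, Cd70, Nfkb1 and Rel were named after their values were seen. Some genes that the rule or the marker lists name are not reported here.

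As alternatives, the filter was dropped or made stricter, and 3 other scalings were used, as were DESeq2 1.42.0, limma 3.58.1 voom with and without quality weights, the replicate block, each library left out, removal of the library with the fewest genes of each genotype, a GC offset with and without the block, and a threshold of 0.1. The GC offset was a loess curve per library (span 0.75) of log2 CPM deviation on GC content over genes with mean log2 CPM above 5, centred so as not to rescale the library. A robust version of the curve and the centring were chosen after seeing the data. GC content was known for 8200 tested genes (96.6%). The fit was run on simulated counts with the same dispersion for all genes, no GC trend and no library apart. These libraries differ from that setting, so the simulation does not show how well the fit works on them.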

Additional observations from a re-analysis of the deposited data

Results flagged for a closer look

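Of 16 groups of 4 libraries examined (8 ligands in 2 genotypes), 2 held a library far from the other 3 by Dixon's criterion. Chance alone meets it in about 1 in 20 groups of normally distributed values. Both groups held levels at 0, so this rate does not apply to them. Tnfsf10 was at 128 CPM in knockout replicate 4, against 0, 0 and 9.36 CPM in the other knockout libraries. This is the library with few Cd4 and many Cd8b1 counts, and with Cd8a at 0. Tnfsf14 was at 28.9 CPM in knockout replicate 1, against 0, 0.279 and 0 CPM in the others. The cause of either was not tested.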

How the results depend on the processing

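Of 167 ligand fold changes under the alternatives, 152 kept their direction and their side of the threshold, 2 newly passed it and 13 changed sign. The 152 include Tnfsf10 in DESeq2, which kept its direction but was given no p. Those that passed were Ltb in limma voom and in limma voom with quality weights. Where edgeR called 0 genes, DESeq2 called 387 (61 higher, 326 lower), limma voom 9 (2 higher, 7 lower) and limma voom with quality weights 4 (2 higher, 2 lower), and every edgeR alternative called 0; the cause was not tested. Sign changes concerned Tnfsf10 and Tnfsf14, the scarcest ligands per length. Tnfsf10, at 1.17, was at −3.99 in limma voom, −4.83 with quality weights, −4.36 with the replicate block, −4.62 with the block and GC offset, and −2.33 without wild-type and knockout replicates 4, and between −2.31 and 1.59 when each library was left out. Tnfsf14, at −0.22, was at 0.071 with the GC offset, 0.066 with its robust curve, and between −6.42 and 0.23 when each library was left out. Of 168 list medians 157 moved by less than the spread between libraries. That spread was wide, so this count does not show that the medians were stable. Within it the median of the adaptors went from −0.31 to −2.10 in limma voom, and some list medians changed sign. With the replicate block those of the ligands' receptors, the NF-kappaB list and the decay list were −2.85, −0.89 and −0.29, and with block and GC offset the first pair was −2.58 and −0.84. Limma voom moved the median of all tested genes to −1.28, limma voom with quality weights to −0.36 and the replicate block to −0.68.

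The replicate numbers gave no sign of pairing. Deviations of same-numbered libraries correlated at −0.02 to 0.05, and 3 of 8 libraries were closest to their own number. With the replicate block edgeR still called 0 genes, and the log2 fold change of Ltb was −0.90, that of Tnfsf8 1.34 and that of Tnf −5.68. Tnf, Tnfsf10 and Tnfsf14 each had knockout libraries at 0 or 1 count, and Tnfsf14 was also at 0 in wild-type replicate 4. A count of 0 allows a level of up to 0.119 to 0.167 CPM in knockout libraries (3 counts, counting error only). The cause of these low counts was not tested.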
